A study of Mus musculus with 4 samples.

Results

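Replication-dependent histone genes encode the linker histone H1 and the core histones H2A, H2B, H3 and H4. They were taken here as every gene with a standard symbol of these families that had a probe set listing no other gene, with the brightest probe set standing for a gene. The rule gave 26 of the 19938 genes measured, each with 1 such probe set: 4 H1, 4 H2A, 9 H2B, 3 H3 and 6 H4 genes. Of these, 22 lie on mouse chromosome 13 and 4 (*H2bc18*, *H2bc21*, *H3c15* and *H4c14*) on chromosome 3. The study compared whole lungs at embryonic day 18.5 from *Hmga2*-/- embryos (KO, 2 arrays) and *Hmga2*+/+ embryos (WT, 2 arrays), both labelled C57BL/6 and from timed pregnancies. The labels number the arrays of each group as biological replicates 1 and 2 and do not say whether an array held 1 embryo or several. The KO titles name KO1 and KO2, whereas both WT titles name WT1, so whether the WT arrays came from separate embryos is not settled by the labels. Biotinylated cRNA made from total RNA was hybridised to Affymetrix arrays, and all values below are log2 RMA values, a scale on which a difference of 1 is a doubling.

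These genes differ from other protein-coding genes in how their mRNA is made. Most of their transcripts are known to end in a conserved stem-loop, bound by the stem-loop binding protein SLBP, in place of a poly(A) tail. They are also known to accumulate while DNA is copied in S phase. The genes here were taken by symbol alone, so single genes may depart from this. The genes lie in clusters and are switched on together at the start of S phase through the coactivator NPAT, so that new histones are ready for newly made DNA. Near-identical copies make up each core histone class, and many array probes match several of them. The sources used here do not state whether the labelling used a poly(A) primer.

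Since the genes are known to be controlled by class at their promoters, the stretches upstream of 10 members are shown here so that they can be set beside the values. The 4 H1 genes are shown, and 1 H2A, 3 H2B and 2 H4 genes, those with the smallest p within their own class. The number shown per class was set by hand. No motif of their own was searched for the H3 genes, and none of them is shown. The stretches are the 150 bases before the annotated start, 5′ to 3′ along the gene, from RefSeq on GRCm38.p6. For H1, the capitals mark the H1 box, searched as AAACACA and known from vertebrate H1 promoters. It was found upstream of *H1f5*, *H1f2* and *H1f3*, and these letters did not occur in the window of *H1f1*.
*H1f1* (chr13:23763518-23763667, plus strand): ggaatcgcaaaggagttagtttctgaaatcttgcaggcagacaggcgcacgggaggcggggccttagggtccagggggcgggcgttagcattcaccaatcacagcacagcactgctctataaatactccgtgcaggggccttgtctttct
*H1f5* (chr13:21780626-21780775, minus strand): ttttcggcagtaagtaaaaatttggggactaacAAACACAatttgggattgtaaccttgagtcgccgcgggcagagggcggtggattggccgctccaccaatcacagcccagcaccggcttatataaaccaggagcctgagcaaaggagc
*H1f2* (chr13:23738657-23738806, plus strand): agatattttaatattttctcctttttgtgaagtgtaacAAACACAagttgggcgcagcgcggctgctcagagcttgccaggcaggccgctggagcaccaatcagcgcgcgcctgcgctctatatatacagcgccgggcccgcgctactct
*H1f3* (chr13:23554882-23555031, plus strand): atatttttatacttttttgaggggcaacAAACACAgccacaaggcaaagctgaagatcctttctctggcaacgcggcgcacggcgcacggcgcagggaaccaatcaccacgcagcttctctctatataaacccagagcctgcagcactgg
For H2A and H2B, the capitals mark the octamer, searched as ATTTGCAT, which the POU factor POU2F1 is known to bind in human H2B promoters. *H2ac4* carried it on the opposite strand.
*H2ac4* (chr13:23750938-23751087, plus strand): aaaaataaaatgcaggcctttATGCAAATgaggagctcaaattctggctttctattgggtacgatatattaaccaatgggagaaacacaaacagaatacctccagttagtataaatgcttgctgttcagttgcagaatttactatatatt
*H2bc18* (chr3:96269550-96269699, plus strand): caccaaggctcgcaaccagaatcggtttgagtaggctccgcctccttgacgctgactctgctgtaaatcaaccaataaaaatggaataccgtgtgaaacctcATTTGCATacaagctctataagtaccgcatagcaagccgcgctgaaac
*H2bc8* (chr13:23571250-23571399, plus strand): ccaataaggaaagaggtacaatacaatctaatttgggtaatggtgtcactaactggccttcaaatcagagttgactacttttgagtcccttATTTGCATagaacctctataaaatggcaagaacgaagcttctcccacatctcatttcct
*H2bc3* (chr13:23746584-23746733, plus strand): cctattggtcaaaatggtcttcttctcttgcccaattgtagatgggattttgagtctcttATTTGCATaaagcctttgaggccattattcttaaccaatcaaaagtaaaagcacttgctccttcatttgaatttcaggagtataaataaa
For H4, the capitals mark GGTCCG, the core of a promoter element bound in human cells by the zinc finger protein HINFP.
*H4c6* (chr13:23551669-23551818, minus strand): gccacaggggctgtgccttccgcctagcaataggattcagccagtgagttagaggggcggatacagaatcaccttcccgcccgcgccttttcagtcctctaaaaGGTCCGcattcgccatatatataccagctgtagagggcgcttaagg
*H4c3* (chr13:23698459-23698608, minus strand): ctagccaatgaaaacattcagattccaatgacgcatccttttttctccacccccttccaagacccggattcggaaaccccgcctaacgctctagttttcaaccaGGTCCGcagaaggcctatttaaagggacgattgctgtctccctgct
A promoter window of 300 bases (250 before the start and 50 after it) was listed for 22 of the 26 genes, and not for *H2bc4*, *H2bc21*, *H3c7* and *H4c14*. On either strand of the window, the H1 box stood in 3 of 4 H1 genes, 2 of 4 H2A genes, 2 of 7 H2B genes and 7.18% of 32851 mouse promoter windows. The octamer stood in 5 of 7 H2B and 3 of 4 H2A genes and in 1.74% of all windows. GGTCCG stood in 5 of 5 H4 genes, 1 of 7 H2B genes and 8.25% of all windows. Counted from the start, it began at -46 or -47 in *H4c6*, *H4c3*, *H4c9* and *H4c4*, but at -5 in *H4c8*. CCAAT was found in 19 of the 22 (37.4% of all windows) and TATAAA in 15 of the 22 (13.6%). Windows of genes that start back to back overlap, so the same site can be counted for both genes. The octamers of *H2ac8* and *H2bc8* were the same site. So were the octamers of *H2ac1* and *H2bc1*, and also their H1 boxes. No match of one motif overlapped a match of another, and a match is only a run of letters.

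The labels were first checked with the targeted gene. The *Hmga2* probe set read 9.65 and 9.39 on the KO arrays, against 9.35 and 9.59 on the WT arrays. The KO and WT values overlapped (0.051 ± 0.16, log2 difference ± SE, limma adjusted p = 0.892), and the direction turned in 3 of the alternatives tried. The sources used here do not say which part of the gene the probes cover, so "KO" below means the arrays labelled so. Lung epithelial and mesenchymal markers averaged 12.28 and 12.24, and 11.93 and 11.94, on the KO arrays, against 12.19 and 12.30, and 11.84 and 11.88, on the WT arrays. The epithelial markers were mixed, with 3 of 6 higher and 3 lower. *Epcam*, an adhesion molecule of epithelial cells, read 10.61 and 10.59 in KO, against 9.65 and 10.16 in WT, with WT replicate 1 lowest (0.69 ± 0.19, adjusted p = 0.178). *Sftpb*, the surfactant protein B gene, read 12.85 and 12.77 in KO, against 13.36 and 13.38 in WT (-0.56 ± 0.13, adjusted p = 0.124). They are named because of their values. Over all probe sets WT replicate 1 stood apart, with a correlation of 0.985 to WT replicate 2, whereas WT replicate 2 had 0.994 and 0.992 to the KO arrays. The main counts and the class medians below are therefore also given against each WT array alone.

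The histone genes were higher in the KO lungs as a group, by 1.41-fold at the median. The KO mean was above the WT mean for 25 of 26 genes (41.2% of all genes), and both KO arrays were above both WT arrays for 24 of 26 (17.6% of all genes). The exceptions were *H2bc4* and *H2bc21*, whose groups overlapped, and for no histone gene were both KO arrays below both WT arrays (31.8% of all genes). The median difference was 0.50 over the 26 genes and -0.051 over all genes, with a range from -0.15 (*H2bc21*) to 1.39 (*H2ac4*). A KO mean at least 1.2-fold above the WT mean was seen for 24 of 26 genes (13.4% of all genes).

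No single gene passed the test across all genes. With limma and Benjamini-Hochberg adjustment over all genes, 0 of 26 passed an adjusted p of 0.05 in either direction (0.0802% of all genes higher and 0.702% lower). Likewise 0 passed with a trended, robust variance (0.125% of all genes higher and 0.858% lower) or after median centring (0.366% and 1.11%). Against a 1.2-fold null 0 passed too, and there the share of all genes was not computed. Higher past that threshold were 1 after cyclic loess (0.401% of all genes) and 2 of 20 without the dimmest 40% of genes (0.619%). With the replicate number as a block, 5 of 26 were higher past it (1.21% of all genes). At an unadjusted p of 0.05, 21 of 26 were higher (5.88% of all genes) and 0 lower (8.58%). At an adjusted p of 0.10, 2 were higher, *H1f1* and *H2bc18* (0.537% of all genes). With 2 arrays against 2, the smallest two-sided exact permutation p for a single value is 0.333. Bulk RNA cannot tell more cells that make a transcript from more transcript per cell.

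Some markers of other cell types also differed between KO and WT. Over all genes, the KO mean was lower for 11733 of 19938 and higher for 8205. The 4 leukocyte markers were all lower in KO (list mean 9.34 and 9.15 in KO, against 10.04 and 10.13 in WT). Of these only *Lyz2*, a lysozyme gene, passed the test, with a difference of -1.76 (adjusted p = 0.00803). *Ptprc*, *Cd68* and *Csf1r* differed by -0.91, -0.43 and -0.27 (adjusted p = 0.122, 0.402 and 0.412). *Lyz2* was also the brightest of the 4, so the list mean leans on it. Which cells its signal came from was not tested. The 4 cardiac and atrial muscle markers were all higher (10.29 and 10.06 in KO, against 9.31 and 9.05 in WT), and *Nppa*, the atrial natriuretic peptide gene, rose by 1.78 (adjusted p = 0.0172). Endothelial markers were lower in 3 of 4 (11.64 and 11.60 in KO, against 11.79 and 11.89 in WT). Both measured erythroid markers were lower, *Alas2* with a difference of -0.66 (adjusted p = 0.0873) and *Slc4a1* with -0.10 (adjusted p = 0.710). No endothelial or erythroid marker passed the test. The part of these cells in the histone differences above was not tested.

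**Figure D1:**
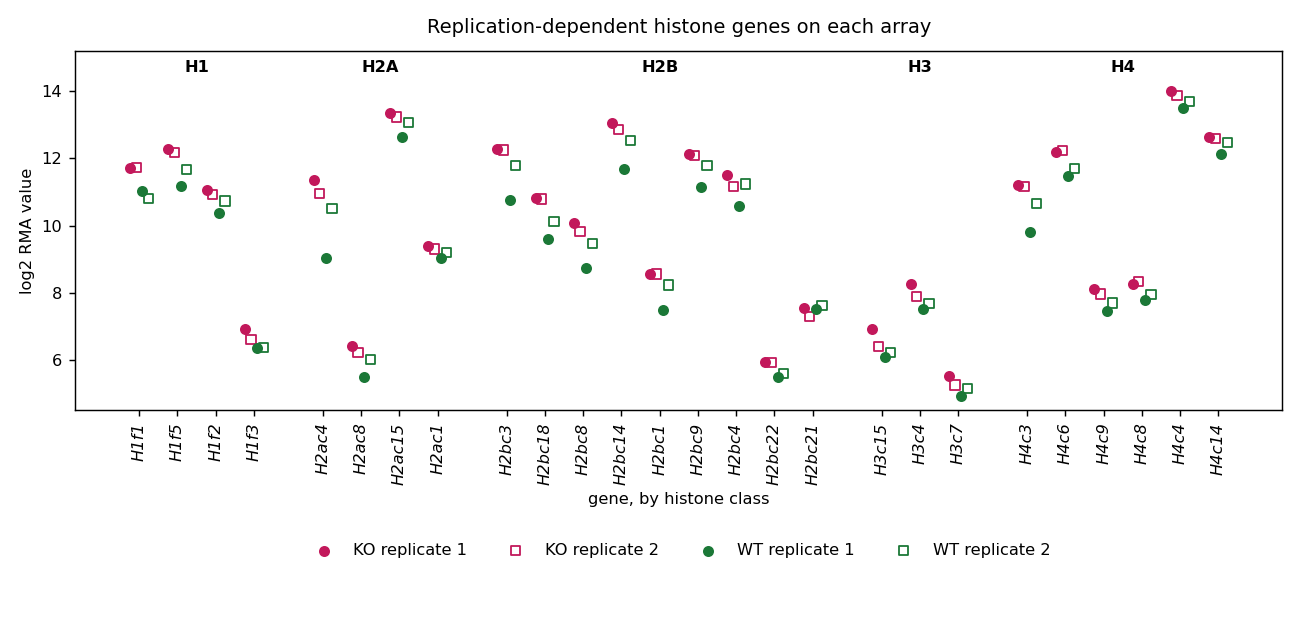
Log2 RMA value (vertical axis) of each of the 26 histone genes (horizontal axis, by class) on the 2 KO and 2 WT arrays, 1 point per array. Both KO points lie above both WT points for 24 genes, and WT replicate 1 is the lowest point for 24.

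The WT arrays differed between themselves more than the KO arrays did. WT replicate 1 was the lowest of the 4 arrays for 24 of 26 histone genes (37% of all genes), and WT replicate 2 was above it for 25 of 26 (58.3%). The median gap between the WT arrays was 0.35, against 0.12 between the KO arrays (0.20 and 0.12 over all genes). Array medians over all genes were 8.34 on KO replicate 1 and WT replicate 2, and 8.19 on KO replicate 2 and WT replicate 1. These offsets were not taken out of the gaps or of the values against single WT arrays. KO replicate 1 was above KO replicate 2 for 23 of 26 (78.3% of all genes).

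The direction was the same without the low WT array. Against WT replicate 2 alone, the KO mean was higher for 25 of 26 genes (7217 of all 19938). The median difference was 0.35 (-0.058 over all genes), and both KO arrays were above WT replicate 2 for 24 of 26 (24% of all genes). Against WT replicate 1 alone the median was 0.68 (-0.034 over all genes), again with the KO mean higher for 25 of 26 (9189 of all 19938). The size thus depended on the WT array: without WT replicate 1, 9 of 26 genes passed an adjusted p of 0.05 (2.53% of all genes), and without WT replicate 2, 24 of 26 (16.7%). In those fits the remaining WT array is assumed to vary like the KO pair, and limma gave every gene the same pooled standard error of 0.15, so that these counts amount to a fixed cut on the difference. Without KO replicate 1 or KO replicate 2, 0 of 26 passed, but 0% of all genes were higher past an adjusted p of 0.05 there. These counts of 0 therefore say nothing about the histone genes in particular. In the same fits, 4 and 8 were higher at an unadjusted p of 0.05 (1.23% and 2.49% of all genes).

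**Figure D2:**
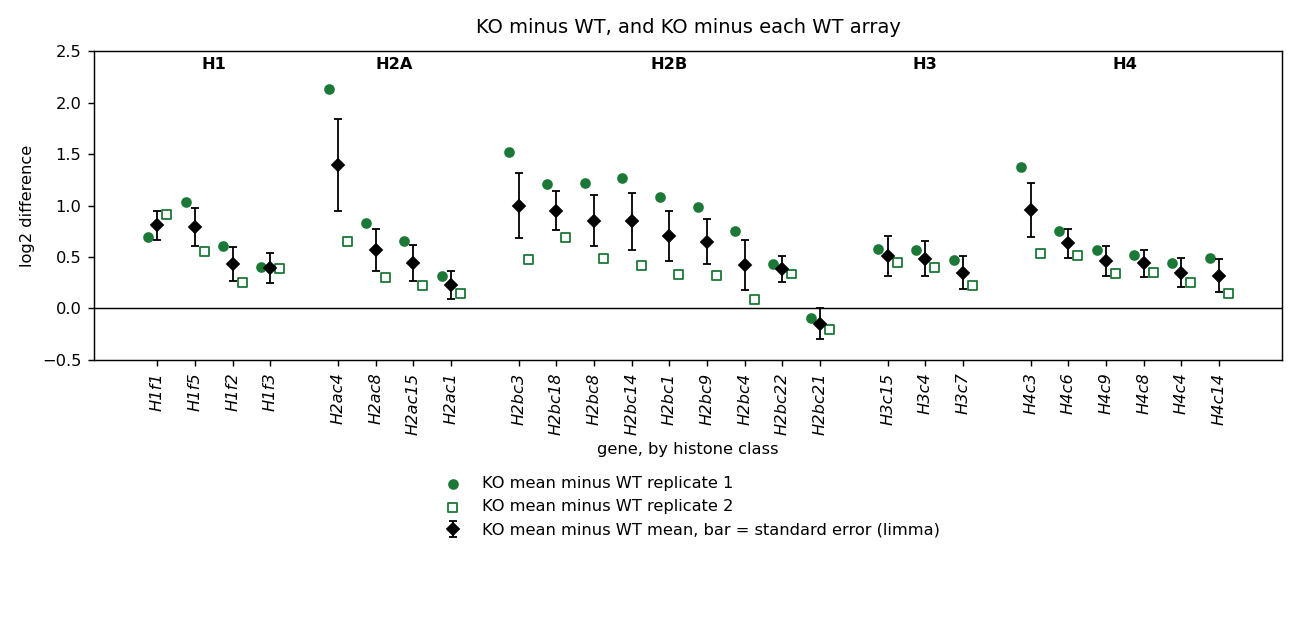
KO mean minus WT mean with its standard error (diamonds, log2), and KO mean minus each WT array alone (circles and squares), for the 26 histone genes by class. Only *H2bc21* lies below 0, and only *H1f1* lies farther above WT replicate 2 than above WT replicate 1.

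Linker histones bind the DNA that enters and leaves the nucleosome, and all 4 measured H1 genes were higher in the KO lungs, with a median difference of 0.61 (0.65 against WT replicate 1 and 0.47 against WT replicate 2). *H1f1* read 11.70 and 11.73 on the KO arrays, against 11.02 and 10.80 on the WT arrays. It was the only histone gene with its lowest value on WT replicate 2, and the groups were well separated. Its difference of 0.81 ± 0.14 (adjusted p = 0.0693) was the closest to the threshold among the 26, and against WT replicate 2 alone it was 0.92, the largest of any member there. *H1f5*, another linker histone gene, read 12.27 and 12.17 in KO, against 11.19 and 11.67 in WT. The KO values again lay above both WT values, by 0.79 ± 0.18 (adjusted p = 0.129). *H1f2* read 11.06 and 10.91 in KO, against 10.38 and 10.73 in WT (0.43 ± 0.16, adjusted p = 0.310). The remaining gene, *H1f3*, differed by 0.39.

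H2A pairs with H2B on the outer faces of the nucleosome, and all 4 H2A genes were higher in KO (median 0.50, with 0.74 against WT replicate 1 and 0.26 against WT replicate 2). *H2ac4* read 11.35 and 10.96 in KO, against 9.02 and 10.50 in WT. The groups did not overlap, but the WT arrays lay farther apart than WT replicate 2 lay from the KO arrays. The difference of 1.39 ± 0.45 was the largest of the 26 (adjusted p = 0.232), and it was 2.13 against WT replicate 1 and 0.65 against WT replicate 2. *H2ac8* read 6.41 and 6.21 in KO, against 5.47 and 6.01 in WT (0.57 ± 0.20, adjusted p = 0.285). *H2ac15* read 13.35 and 13.24 in KO, against 12.64 and 13.07 in WT (0.44 ± 0.18, adjusted p = 0.332). In both genes WT replicate 1 was the low array. *H2ac1*, which encodes the testis histone TH2A, had the smallest difference of the class at 0.23.

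H2B was the class with the most genes, with a median difference of 0.71 (1.09 against WT replicate 1 and 0.33 against WT replicate 2). *H2bc18* read 10.83 and 10.79 in KO, against 9.60 and 10.12 in WT. The KO arrays were nearly equal and clear of both WT arrays, with a difference of 0.95 ± 0.19 (adjusted p = 0.0937). *H2bc3* read 12.29 and 12.25 in KO, against 10.76 and 11.80 in WT (0.995 ± 0.32, adjusted p = 0.228). *H2bc8* read 10.07 and 9.82 in KO, against 8.73 and 9.46 in WT (0.85 ± 0.25, adjusted p = 0.202). *H2bc14* read 13.05 and 12.87 in KO, against 11.69 and 12.55 in WT (0.84 ± 0.27, adjusted p = 0.237). In the last 3 genes WT replicate 2 lay much nearer to the KO arrays than WT replicate 1 did. *H2bc9*, *H2bc22* and *H2bc1*, the last encoding the testis histone TH2B, differed by 0.65, 0.38 and 0.71 with no overlap.

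The members with overlapping groups were both H2B genes, singled out after their values were seen. *H2bc4* read 11.49 and 11.16 in KO, against 10.57 and 11.24 in WT, so that WT replicate 2 lay between the KO arrays (0.42 ± 0.24, adjusted p = 0.456). *H2bc21*, known from mouse olfactory neurons as the H2B variant H2BE, read 7.55 and 7.28 in KO, against 7.51 and 7.62 in WT. It was the only histone gene with a lower KO mean (-0.15 ± 0.15, adjusted p = 0.648), and its low value was KO replicate 2. The median over the 4 genes of chromosome 3 was 0.41, against 0.52 over the 22 of chromosome 13.

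H3 and H4 form the tetramer at the core of the nucleosome. *H3c15* and *H3c7* lay among the dimmest 40% of genes, as did *H1f3*, *H2ac8*, *H2bc22* and *H2bc21*, and the H3 median therefore rests mostly on dim probe sets. All 3 H3 genes were higher in KO, with a median of 0.48 (0.57 and 0.40 against WT replicates 1 and 2). *H3c4* read 8.27 and 7.88 in KO, against 7.51 and 7.68 in WT (0.48 ± 0.17, adjusted p = 0.278). *H3c15* read 6.90 and 6.39 in KO, against 6.08 and 6.20 in WT (0.51 ± 0.19, adjusted p = 0.306). *H3c7* read 5.50 and 5.24 in KO, against 4.90 and 5.15 in WT (0.35 ± 0.16, adjusted p = 0.384). In this class alone the KO arrays were farther apart than the WT arrays at the median (0.39 and 0.17), and KO replicate 2 lay close to WT replicate 2.

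All 6 H4 genes were higher in KO, with a median of 0.45 (0.55 against WT replicate 1 and 0.35 against WT replicate 2). *H4c6* read 12.20 and 12.25 in KO, against 11.47 and 11.71 in WT (0.63 ± 0.14, adjusted p = 0.121). *H4c3* read 11.20 and 11.17 in KO, against 9.81 and 10.65 in WT (0.95 ± 0.27, adjusted p = 0.184). Both genes had KO arrays that agreed closely, and only *H4c3* had a wide gap between its WT arrays. *H4c8* read 8.27 and 8.33 in KO, against 7.78 and 7.95 in WT (0.44 ± 0.13, adjusted p = 0.217). *H4c4*, included for its high signal, read 14.02 and 13.89 in KO, against 13.51 and 13.70 in WT (0.35 ± 0.14, adjusted p = 0.333). The differences of *H4c9* and *H4c14* were 0.46 and 0.32. The class differences were not tested against each other.

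Some H2A and H2B genes start back to back and share the DNA between them. *H2ac8* and *H2bc8*, whose starts lie 180 bases apart, differed by 0.57 and 0.85. *H2ac1* and *H2bc1*, whose starts lie 281 bases apart, differed by 0.23 and 0.71. In both pairs the H2B gene had the larger difference.

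Most histone genes could not be read singly, since 36 were named only on probe sets with several symbols, and 18 of the 26 members were named on such sets too. There were 26 of these shared probe sets, of which 24 held distinct values. Both KO arrays were above both WT arrays in 24 of the 24 (17.6% of the 19938 genes). The share over all shared probe sets was not computed. The median difference was 0.43, with a range of 0.35 to 0.96 (0.65 at the median against WT replicate 1 and 0.21 against WT replicate 2). The 10 H3 sets, each listing 12 symbols, lay within 0.41 to 0.45. The 6 distinct H2B sets lay within 0.40 to 0.51. The 2 sets listing mainly H2A genes differed by 0.35 and 0.49. The largest value, 0.96, came from an H4 set of *H4c11* and *H4c17*, with 7.73 and 7.59 in KO, against 6.58 and 6.81 in WT. These sets share probes and genes, so they are not separate measurements of 24 genes. Copies within a class are nearly identical, so probe sets listing 1 gene may also pick up other copies, which was not tested.

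**Figure D3:**
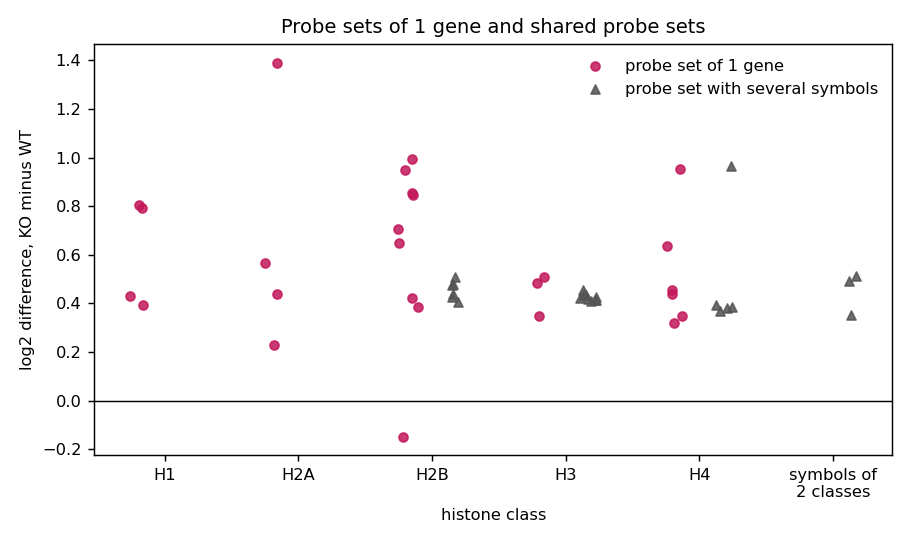
Log2 difference KO minus WT (vertical axis) by histone class (horizontal axis), for probe sets of 1 gene (circles, 26) and for distinct shared probe sets (triangles, 24), 1 point each. All triangles lie between 0.35 and 0.96, and the H3 sets lie within 0.41 to 0.45.

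The factors that make and process histone mRNA had a smaller median difference than the histone genes. Of 16 such genes, 15 had a higher KO mean, with a median of 0.21. None passed the test, and 4 were higher at an unadjusted p of 0.05 (5.88% of all genes) and 0 lower (8.58%). *Slbp*, which binds the stem-loop and whose protein is known to peak in S phase, read 10.34 and 10.17 in KO, against 9.02 and 9.96 in WT (0.76 ± 0.30, adjusted p = 0.321). WT replicate 1 was again the low array. *Npat* read 9.87 and 9.74 in KO, against 9.60 and 9.68 in WT (0.17 ± 0.13, adjusted p = 0.565). The cleavage and polyadenylation factors *Cpsf2* and *Cstf2* differed by 0.44 and 0.39.

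Histone chaperones carry new histones to DNA, and 20 of 22 had a higher KO mean (median 0.37, 0 past the test, and at an unadjusted p of 0.05 11 higher, against 5.88% of all genes, and 1 lower, against 8.58%). *Chaf1a*, the large subunit of the CAF-1 complex that loads H3 and H4 at replication forks, read 9.36 and 9.35 in KO, against 8.21 and 8.56 in WT (0.97 ± 0.16, adjusted p = 0.0607). *Chaf1b*, another CAF-1 subunit, read 10.05 and 9.97 in KO, against 8.10 and 9.15 in WT (1.39 ± 0.32, adjusted p = 0.129). KO arrays nearly coincided in both genes. *Mms22l*, which acts in replication-coupled repair, differed by 0.72 (adjusted p = 0.0825). *Chaf1a* passed after median centring (adjusted p = 0.0387), after cyclic loess (0.0331) and without the dimmest genes (0.0336), and *Mms22l* after cyclic loess (0.0390).

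Of 9 replication-independent histone genes, which make variants outside S phase as well, 8 had a higher KO mean, with a median of 0.60 and 0 past the test (at an unadjusted p of 0.05, 5 higher, against 5.88% of all genes, and 0 lower). *H2az1* differed by 0.60 (adjusted p = 0.149), *H2ax*, the variant phosphorylated at DNA breaks, by 0.91 (adjusted p = 0.167) and the linker histone *H1f10* by 1.09 (adjusted p = 0.228). The replication machinery lists had larger medians than the histone genes. All 17 genes for the MCM helicase, its loading and its activation were higher in KO, with a median of 0.84 and *Cdc45*, *Mcm10* and *Orc1* at 0.80, 1.10 and 0.67. All 24 replisome genes were higher, also with a median of 0.84 and with the DNA polymerase subunit *Pola1*, the thymidylate synthase *Tyms* and the DNA ligase *Lig1* at 0.88, 0.99 and 1.06. Of these 41 genes 0 passed the test, and at an unadjusted p of 0.05 the KO value was higher in 39 (5.88% of all genes) and lower in 0 (8.58%). *Pola1* and *Tyms* passed after median centring (adjusted p = 0.0387 and 0.0420), after cyclic loess (0.0298 and 0.0360) and without the dimmest genes (0.0347 and 0.0416). WT replicate 1 was the lowest array for 41 of the 41. How these lists differ from the histone genes was not tested.

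**Figure D4:**
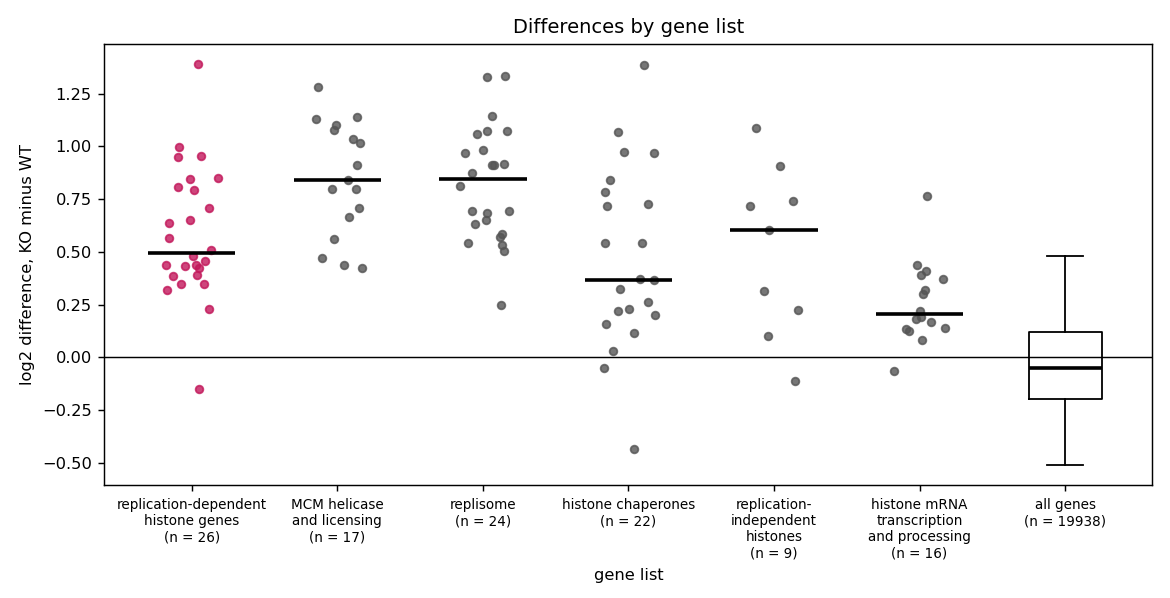
Log2 difference KO minus WT (vertical axis) for the 26 histone genes and 5 related gene lists (1 point per gene, line at the median), beside a box for all 19938 genes (box at the quartiles with a median line, whiskers at the 5th and 95th percentiles). The medians are 0.50 for the histone genes, 0.84 for each replication machinery list and -0.051 for all genes.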

How the data were processed

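Whole-lung total RNA from 2 KO and 2 WT samples was measured on 4 Affymetrix arrays. The deposited values are log2 RMA values that the authors made with Affymetrix Expression Console (version not given in the sources used here). RMA subtracts background, quantile-normalises and summarises the probes, which is meant to remove most of a shift common to all genes. Medians over the 19938 genes still read 8.34 and 8.19 on KO replicates 1 and 2, and 8.19 and 8.34 on WT replicates 1 and 2. Symbols came from the platform annotation: of 30177 probe sets, 21789 list 1 symbol, 1621 several and 6767 none. Probe sets with several symbols were kept apart. For each of the 19938 genes with a probe set of 1 symbol, the one with the highest mean over the arrays was used. Groups came from the labels. Differences were fitted with limma 3.58.1 (R 4.3.3, lmFit followed by eBayes, 2 residual and 4.42 prior degrees of freedom) with Benjamini-Hochberg adjustment over all genes, and the code was tested on simulated data. Precision is set by the number of arrays, and p-values measure only the spread between these arrays. Members and lists were chosen with earlier results of these data known. Named in each class were the 3 genes with the smallest p and the brightest, and in each related list the 3 with the smallest p, with *Slbp* and *Npat*. Promoters came from RefSeq (GRCm38.p6) and figures from matplotlib. Alternatives covered pairing, normalization, dim genes, probe set choice, variance, threshold and single arrays.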

Additional observations from a re-analysis of the deposited data

How the results depend on the processing

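The histone genes kept a positive median under every alternative tried, 0.35 to 0.68 with 1 array left out and 0.72 over only the members above the median gene, and 0 members were lower past an adjusted p of 0.05 in any of them. The count of members higher past that threshold, 0 with all arrays, was 0 to 24 with 1 array left out (9 without WT replicate 1 and 24 without WT replicate 2), 1 after cyclic loess (*H2bc18*, 0.401% of all genes), and 2 both without the dimmest 40% of genes, where 20 members were tested (0.619%), and at an adjusted p of 0.10 (*H1f1* and *H2bc18*). The lower end of 0 came from leaving out a KO array, where 0% of all genes were higher past that threshold. Same-numbered arrays did not deviate together (correlation -0.238), so the numbers were not taken as pairs. With the replicate number as a block, 5 members passed (1.21% of all genes), as did *Chaf1a*, *Chaf1b*, *H2ax*, *H1f10*, *Mcm10*, *Pola1*, *Tyms* and *Lig1*. Pairing the numbers crosswise, chosen after seeing the data, gave 2 members (1.04% of all genes). With 1 array left out, class medians ranged over 0.47 to 0.67 for H1 (0.79 without the dimmest genes), 0.33 to 1.09 for H2B and 0.26 to 0.68 for H3, and list medians over 0.14 to 0.35 for histone mRNA transcription and processing, 0.22 to 0.57 for chaperones, 0.34 to 0.75 for replication-independent histones and 0.48 to 1.15 for the replisome. *Hmga2* turned to -0.0058 after cyclic loess and ranged over -0.076 to 0.18 with 1 array left out (-0.076 without KO replicate 1 and -0.069 without WT replicate 1). The causes were not tested. Adding shared probe sets gave a median of 0.44. Median centring moved the median of all genes by less than 0.001 and cyclic loess by 0.048.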
